A study of Mus musculus with 48 samples.

Results

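The 10 genes described here are the set that marks disease-associated microglia: Apoe, Axl, Clec7a, Itgax, Lpl, Cst7, Gpnmb, Spp1, Lgals3 and Fabp5. They were looked up by symbol in both deposited count tables, in each library, across cell classes named from markers outside the set. Of the 10, 9 had a row in both tables, among 20300 genes in the whole-tumor table and 14363 in the CD11b+ table. Clec7a, the beta-glucan receptor Dectin-1, had no row in either and was not analysed here; GENCODE lists it as a polymorphic pseudogene.

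Disease-associated microglia are a state in which brain macrophages take up lipid and debris, turn down their homeostatic genes and turn on genes for lipid transport, lysosomal function and adhesion. In the degenerating brain, full entry into the state depends on the lipid receptor Trem2 and its adaptor Tyrobp. Many of the same genes are switched on by monocyte-derived macrophages that enter a tumor, so the set marks a program rather than a lineage.

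The study grew GL261 cells, a mouse glioblastoma line, in the brains of young male C57BL/6 mice. The tumor cells carried either a negative control shRNA (shNC) or an shRNA against P-Selectin (shSELP), and the host cells were unmodified. The comparison asks how the cells of the tumor differ when the tumor cells carry the P-Selectin shRNA. Per the labels, the whole-tumor libraries were made on day 16 from CD11b+ cells, the remaining CD45+ cells and the remaining suspension mixed in equal amounts, with 2 shNC and 2 shSELP libraries. The CD11b+ libraries were made on day 21 from cells held on magnetic beads, with 1 library for each group. Per the study's methods, brains of several mice were pooled for each group, and whether the replicate libraries come from separate pools is not stated. The methods give a different day from the labels. The p-values below therefore measure only the spread between these libraries.

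The whole-tumor libraries held 22945972 and 22626413 unique molecular identifiers (UMIs, counted RNA molecules) for shNC and 17398121 and 25589350 for shSELP, from 2289 to 2297 cells each. Their median depths were 9015, 7579, 5887 and 9388 UMIs per cell, in the order shNC replicates 1 and 2 and shSELP replicates 1 and 2. The CD11b+ libraries held 12628177 UMIs (shNC) and 11445676 UMIs (shSELP), from 2862 cells each. Any pair of libraries shared between 0 and 3 cell barcodes. Of the 8 entries labelled CD11b+ shSELP, 7 carry 1 description line that names the negative control. The titles, source names and other description lines of all 8, and the cell columns of the count table, name shSELP and were followed.

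Selp, the gene targeted by the shRNA, could not check the labels. It gave 17, 25, 21 and 21 UMIs in the 4 whole-tumor libraries and 4 UMIs in each CD11b+ library. In tumor-like cells, where the shRNA acts, each shNC library gave 1 UMI and shSELP replicates 1 and 2 gave 0 and 1, against limits for a count of 0 (3 counts) of 0.622, 0.851, 2.92 and 2.93 CPM (a gene's UMIs scaled to the total of the cells summed). A difference in Selp was not detectable at this depth. Endothelial-like cells held 8, 12, 15 and 7 of the whole-tumor Selp UMIs and 0 of the CD11b+ ones, at 60.2 and 57.8 CPM in shNC and 9.05 and 14.2 CPM in shSELP whole-tumor libraries, from 22, 32, 352 and 78 endothelial-like cells. This difference was not tested.

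Cells were clustered without the 9 genes, and each cluster was named from its markers. The whole-tumor libraries gave 1002 microglia-like cells (151, 204, 399 and 248 per library), 2672 macrophage-like cells (839, 670, 431 and 732), 613 dendritic-like cells (128, 182, 116 and 187) and 926 tumor-like cells (353, 282, 108 and 183). The microglia-like sums held UMIs of all 11 microglia markers in every library, with a summed level of 6230, 6354, 8223 and 6302 CPM, against 1124, 1003, 994 and 773 CPM in macrophage-like cells. The 12 macrophage markers summed to 938, 1168, 1114 and 685 CPM in microglia-like cells and to 5436, 6011, 6103 and 6972 CPM in macrophage-like cells. T-like cells (452, 465, 416 and 476), which should lack most of the set, are given for comparison. Their level cannot be taken as free RNA alone, since NK-like cells held less of several members. By their own markers, 773 of the 1002 microglia-like cells were microglia-like, 61 macrophage-like and 147 of no class. Of the 2672 macrophage-like cells, 2411 were macrophage-like and 228 microglia-like. Of the 613 dendritic-like cells, 384 were dendritic-like, 88 macrophage-like and 101 of no class. Of the 926 tumor-like cells, 611 were tumor-like and 289 of no class. Other classes are mixed too. Of 153 oligodendrocyte-like cells, in a cluster led by Prl, Gh and Apod, 62 were oligodendrocyte-like and 35 fibroblast-like. Of 483 neutrophil-like cells, in a cluster led by Retnlg, S100a9 and S100a8, 365 were macrophage-like and 55 neutrophil-like. Levels of these classes below are those of the clusters.

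Where these genes were expressed is described first, as the mean and standard deviation (SD) of CPM over the whole-tumor libraries (n = 4). Apoe, which carries lipid out of and between cells, was highest in macrophage-like cells (26849 ± 6906 CPM), then in microglia-like cells (16210 ± 1996 CPM), and the ranges of those classes did not meet. Neutrophil-like cells (2821 ± 694 CPM) and oligodendrocyte-like cells (2034 ± 831 CPM) followed within each other's SD. T-like cells held 824 ± 346 CPM of Apoe, above tumor-like (209 ± 101 CPM), NK-like (162 ± 29.7 CPM) and dendritic-like cells (148 ± 67.8 CPM), which did not differ beyond their spread.

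Lpl, the enzyme that releases fatty acids from lipoproteins, had its highest mean among the immune classes in microglia-like cells. It stood at 66.4 ± 19.9 CPM in microglia-like cells and at 12.3 ± 11.1 CPM in macrophage-like cells, and at 0.254 ± 0.185 CPM in T-like cells. Oligodendrocyte-like cells (52.2 ± 65.7 CPM) lay within the microglial spread. So did a cycling state among the macrophage-like cells (49.0 ± 25.7 CPM, n = 2). Fabp5, which binds fatty acids in the cytoplasm, was spread more widely. Oligodendrocyte-like (1700 ± 1184 CPM), macrophage-like (1055 ± 216 CPM), dendritic-like (939 ± 230 CPM) and microglia-like cells (699.6 ± 343 CPM) overlapped each other in Fabp5. Mural-like cells (655 ± 768 CPM, n = 2) varied widely, and tumor-like cells had a lower mean (408 ± 117 CPM). Within the dendritic-like cells, Fabp5 belonged to the cluster led by Fscn1 and Ccr7 (3149 ± 282 CPM), against 127 ± 21.0 CPM in the other cluster.

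Axl, a receptor tyrosine kinase for the eat-me bridge Gas6, was highest in mural-like cells (247 ± 2.44 CPM, n = 2) and macrophage-like cells (206 ± 15.2 CPM). Microglia-like cells (169.5 ± 27.4 CPM) came within the spread of macrophage-like cells and of neutrophil-like cells (146 ± 20.5 CPM). Tumor-like (107 ± 20.6 CPM) and dendritic-like cells (62.4 ± 17.3 CPM) followed, above the T-like level of 19.4 ± 3.56 CPM. Itgax, the integrin CD11c, overlapped between macrophage-like (140.1 ± 58.0 CPM) and dendritic-like cells (101 ± 20.2 CPM) over all libraries. In shNC libraries macrophage-like cells stood above dendritic-like cells (199 and 181 against 127 and 101 CPM). In shSELP libraries these classes overlapped (91.7 and 89.0 against 98.8 and 77.7 CPM). Microglia-like cells (70.8 ± 20.1 CPM) equalled neutrophil-like cells (70.8 ± 12.4 CPM) in Itgax. Tumor-like cells held 1.18 ± 0.931 CPM of Itgax, below the T-like 7.82 ± 2.04 CPM.

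Spp1, the secreted ligand osteopontin, varied widely between libraries. Its mean was 2193 ± 1909 CPM in microglia-like cells, 2138 ± 3937 CPM in oligodendrocyte-like cells and 966 ± 432 CPM in macrophage-like cells, which overlapped over the 4 libraries. In each shNC library microglia-like cells stood above macrophage-like cells (4542 against 1538 CPM and 2931 against 1054 CPM). T-like cells (82.4 ± 40.4 CPM), tumor-like cells (26.9 ± 21.4 CPM) and dendritic-like cells (18.3 ± 9.51 CPM) were low in Spp1. Lgals3, the lectin galectin-3, was alike in macrophage-like (1916 ± 280.2 CPM) and neutrophil-like cells (1890.4 ± 64.0 CPM). It was lower in microglia-like (1222 ± 392 CPM), dendritic-like (869 ± 86.1 CPM) and tumor-like cells (625 ± 211 CPM), each within the spread of a neighbour, and the tumor-like spread reached the T-like level (389.8 ± 35.7 CPM).

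Cst7, an inhibitor of lysosomal cysteine proteases, was higher in microglia-like than in macrophage-like cells in every library. Microglia-like cells held 755 ± 218 CPM, T-like cells 215 ± 17.8 CPM and NK-like cells 155 ± 6.72 CPM, while macrophage-like cells held 21.5 ± 11.6 CPM. T and NK cells are known to express Cst7 themselves. Gpnmb, a membrane glycoprotein of lysosomes and melanosomes, had its highest mean in tumor-like cells (787 ± 257 CPM). Macrophage-like (387 ± 160.1 CPM) and microglia-like cells (359 ± 234 CPM) overlapped each other and the lower end of that spread, and T-like (14.7 CPM) and dendritic-like cells (9.002 CPM) were near each other.

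**Figure D1:**
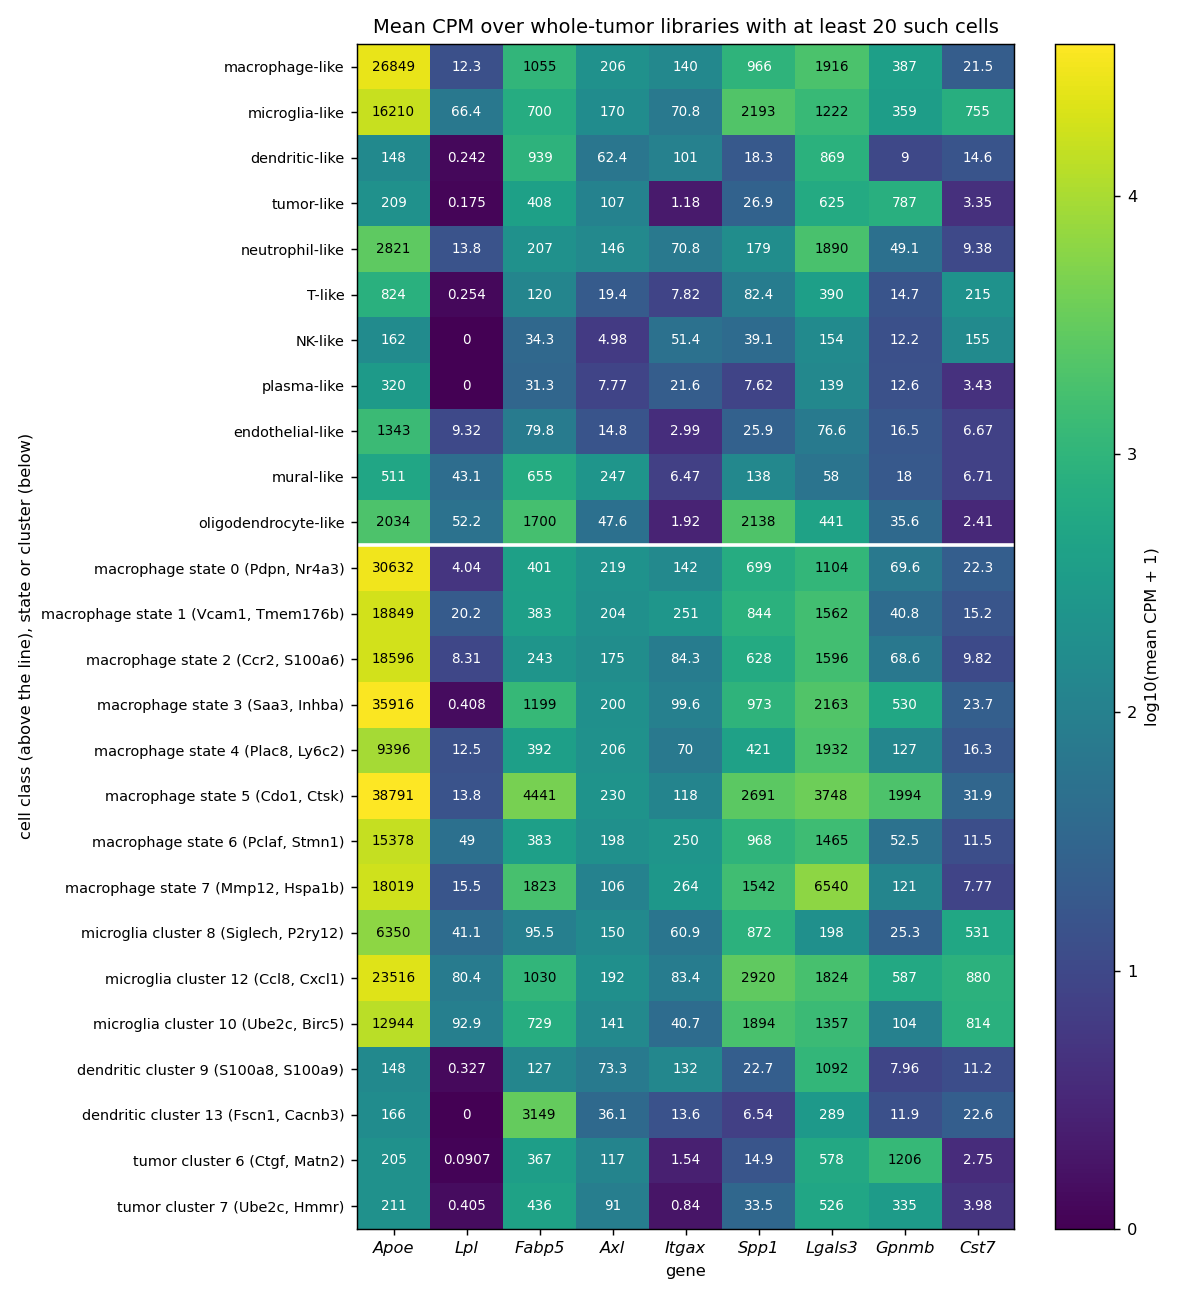
Mean level of each gene (CPM, printed in each cell, with a log color scale) in each class, state and cluster of the whole-tumor libraries with at least 20 such cells. Cst7 is higher in microglia-like than in macrophage-like cells, Apoe the reverse, and Gpnmb reaches 787 CPM in tumor-like cells.

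Among macrophage-like cells, clustering again gave 8 states, and 6 members had their highest macrophage means in state 5, led by Cdo1, Ctsk and Fabp4 (66, 138, 39 and 101 cells). Gpnmb stood at 2082, 2217, 1749 and 1928 CPM there, against 530 ± 223 CPM in the next state, led by Saa3 and Inhba. Fabp5 (4441 ± 1255 CPM), Spp1 (2691 ± 1545 CPM) and Apoe (38791 ± 5302 CPM) were among the others, although Apoe did not differ from the Saa3 state (35916 ± 5880 CPM) beyond its spread. The ranges of Spp1 in state 5 (833 to 4610 CPM) and in the Saa3 state (491 to 1458 CPM) overlapped, although state 5 was higher in each library. Axl (230 ± 31.5 CPM) and Cst7 (31.9 ± 6.53 CPM) lay within the spread of other states. Lgals3 was highest in the state led by Mmp12, Hspa1b and Hmox1 (6540 CPM, n = 1), then in state 5 (3748 ± 360 CPM). Lpl did not follow, at 13.8 ± 9.69 CPM in state 5. Nor did Itgax: it was highest in that Mmp12 state (264 CPM, n = 1), in the Vcam1 state (251 ± 20.9 CPM, n = 2) and in the cycling state (249.8 and 250.2 CPM). Those 3 states had 20 cells or more in shNC libraries only, where state 5 held 112 and 168 CPM of Itgax. Clustering used genes that go along with the set, so these levels are a description and were not tested.

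The day 21 CD11b+ libraries showed a similar grouping of Apoe, Gpnmb and Fabp5 in their own clusters. The cluster led by Cdo1 and Fabp4 held the highest means of Apoe (49122 CPM), Gpnmb (1378 CPM) and, among macrophage-like clusters, Fabp5 (4474 CPM). Lgals3 was highest in the cluster led by Mmp12 (5008 CPM). Cst7 was again microglial, at 756 and 1122 CPM in microglia-like cells of the shNC and shSELP library and at 14.4 and 22.4 CPM in macrophage-like cells.

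The microglia-like cells fell into 3 clusters that carried the set unequally. Cluster 12, led by Ccl8, Cxcl1 and Igf1, held 587 ± 319 CPM of Gpnmb and 1824 ± 302 CPM of Lgals3. Cluster 8, led by the homeostatic genes Siglech and P2ry12, held 25.3 ± 23.9 CPM of Gpnmb and 198 ± 115 CPM of Lgals3, so the ranges of these clusters did not meet for either gene. Cst7 differed less, at 880.5 ± 216 CPM in cluster 12 and 531 ± 242 CPM in cluster 8. The third, cluster 10, was led by the cycling genes Ube2c, Birc5 and Stmn1 and made of shallow cells with a median of 1797 UMIs.

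In whole-tumor microglia-like cells, 4 members fell with the P-Selectin shRNA. With UMIs summed per library and edgeR's quasi-likelihood test over 9028 genes, these 4 of the 9 passed an adjusted p of 0.05, where 0.354% of genes tested passed (32 genes) and 0.133% passed as lower (12 genes). For 8 of the 9, the higher shSELP library was under the lower shNC library, against 17.0% of genes tested. The median log2 ratio of shSELP over shNC was -0.65 for the 9 genes and 0.00 for all genes.

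Spp1 stood at 4542 and 2931 CPM with the control shRNA and at 411 and 889 CPM with shSELP. The groups were far apart, with the higher shSELP library under the lower shNC library, and the log2 change was -2.59 ± 0.32 (standard error, n = 2 against 2, edgeR adjusted p = 0.00662). Gpnmb stood at 528 and 588 CPM in shNC and 118 and 201 CPM in shSELP libraries. These groups did not overlap either, with a log2 change of -1.88 ± 0.22 (edgeR adjusted p = 0.00608).

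Fabp5 stood at 1086 and 889 CPM in shNC and at 379.9 and 443 CPM in shSELP libraries. The groups were apart with little spread inside the shSELP group, and the log2 change was -1.33 ± 0.16 (edgeR adjusted p = 0.00662). Lgals3 stood at 1392 and 1695 CPM in shNC and at 896 and 905 CPM in shSELP libraries, again without overlap, with a log2 change of -0.84 ± 0.13 (edgeR adjusted p = 0.0253). Its call was lost without shNC replicate 2 (log2 change -0.73, edgeR adjusted p = 0.115, between 1.47e-11 and 0.436 over 11 alternatives).

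The other 5 genes did not pass. Cst7 stood at 785 and 1010.1 CPM in shNC and 478 and 749.5 CPM in shSELP libraries (log2 change -0.61 ± 0.20, edgeR adjusted p = 0.216). Itgax stood at 93.1 and 76.2 against 44.6 and 69.2 CPM (-0.65 ± 0.22 on the log2 scale, edgeR adjusted p = 0.228). Axl and Apoe had smaller log2 differences of -0.37 ± 0.15 and -0.35 ± 0.12, each without overlap. Lpl was the one member whose groups overlapped, at 86.6 and 63.4 CPM in shNC and 40.1 and 75.5 CPM in shSELP libraries (log2 difference -0.45 ± 0.28, edgeR adjusted p = 0.5003).

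The number of genes called in microglia-like cells rested on single libraries. It was 176 without shNC replicate 1, 97 without shNC replicate 2, 300 without shSELP replicate 1 and 843 without shSELP replicate 2, and the set's own count was 4, 3, 5 and 8. Without shSELP replicate 2 the log2 change of Spp1 was -3.28. When each cell was named by its own markers instead of its cluster, Gpnmb (-0.96, edgeR adjusted p = 0.107, between 1.90e-48 and 0.107 over 11 alternatives) and Fabp5 (-0.50, edgeR adjusted p = 0.292, between 1.09e-25 and 0.292) lost their calls, while Spp1 and Lgals3 passed and Itgax (-1.48, edgeR adjusted p = 0.0355, between 5.38e-05 and 0.615) joined them. With every cell thinned to 2000 UMIs, Lgals3 lost its call (-0.81, edgeR adjusted p = 0.436).

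Fewer cells with the gene accompanied the lower sums. After thinning to 2000 UMIs, with cells under that depth left out (36, 53, 44 and 66 microglia-like cells), Spp1 was found in 30.4% and 30.5% of microglia-like cells of shNC tumors and in 10.7% and 13.7% of those of shSELP tumors. In T-like cells the share with Spp1 was 7.64%, 6.05%, 3.72% and 4.04%, and median depths before thinning were 5605, 8492, 7223 and 5816 UMIs in microglia-like and 5658, 5633, 4980 and 7570 UMIs in T-like cells. Gpnmb was found in 17.4%, 21.9%, 6.20% and 10.4% of microglia-like cells, against 1.43%, 5.61%, 1.49% and 3.19% of T-like cells. Of the 9 genes, a thinned microglia-like cell held a mean of 3.14 and 3.47 in shNC and of 2.04 and 2.48 in shSELP libraries. T-like cells held 1.25, 1.11, 1.11 and 1.19 of them, and macrophage-like cells 3.27, 3.46, 3.15 and 3.18. Cells with 5 or more of the 9 made up 22.6% and 27.2% of microglia-like cells in shNC and 6.76% and 9.89% in shSELP libraries.

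The 3 microglia-like clusters differed in size between libraries. Cluster 8, low in the set, had 44 and 49 cells in shNC and 227 and 77 in shSELP libraries. Cluster 12, high in the set, had 47, 70, 106 and 47 cells. In a separate fit within each cluster, added after the data were seen, Spp1, Gpnmb and Fabp5 also fell inside cluster 12, where 0.262% of genes tested passed. Spp1 stood at 6636 and 3065 CPM against 852 and 1124 CPM there (-2.38 ± 0.31 on the log2 scale, edgeR adjusted p = 0.0142). Gpnmb stood at 839 and 878 against 244 and 386 CPM (-1.52 ± 0.19, edgeR adjusted p = 0.0142), and Fabp5 at 1555 and 1216 against 674 and 677 CPM (-1.11 ± 0.16, edgeR adjusted p = 0.0166). None of these 3 overlapped between groups.

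Inside the homeostatic cluster 8, Lgals3 fell from 300.3 and 294 CPM to 115 and 83.9 CPM (-1.59 ± 0.20 on the log2 scale, edgeR adjusted p = 0.00109), where 0.0646% of genes passed. Spp1 in cluster 8 varied between replicates of a group, at 50.6 and 2947 CPM in shNC and 17.5 and 472 CPM in shSELP libraries, and the groups overlapped. In the shallow cluster 10, edgeR called 0 of the 9 genes and 0% of all genes. There 2 of the 9 (Spp1 and Itgax, both lower) had an unadjusted p under 0.05, against 1.75% of genes tested. DESeq2 was not run within clusters. With cluster 10 left out of the class, the same 4 members passed, with log2 changes of -2.72 (Spp1), -1.99 (Gpnmb), -1.55 (Fabp5) and -0.91 (Lgals3).

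Among the marker lists in microglia-like cells, the 7 cycling markers summed to 217 and 160.2 CPM in shNC and 149 and 118 CPM in shSELP libraries, with all 7 found in each, led by Mki67, Top2a or Ube2c. The 7 neutrophil markers summed to 57.5 and 63.4 CPM in shNC and 101 and 74.1 CPM in shSELP libraries, most of it Csf3r, with Retnlg at 0 in 3 of the libraries. The 12 dendritic markers summed to 226, 179, 272 and 259.9 CPM, led by Naaa, with Clec9a and Cd209a at 0 in both shNC libraries. The fit without cluster 10, led by cycling genes, is given above; the part of the neutrophil and dendritic markers was not tested.

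**Figure D2:**
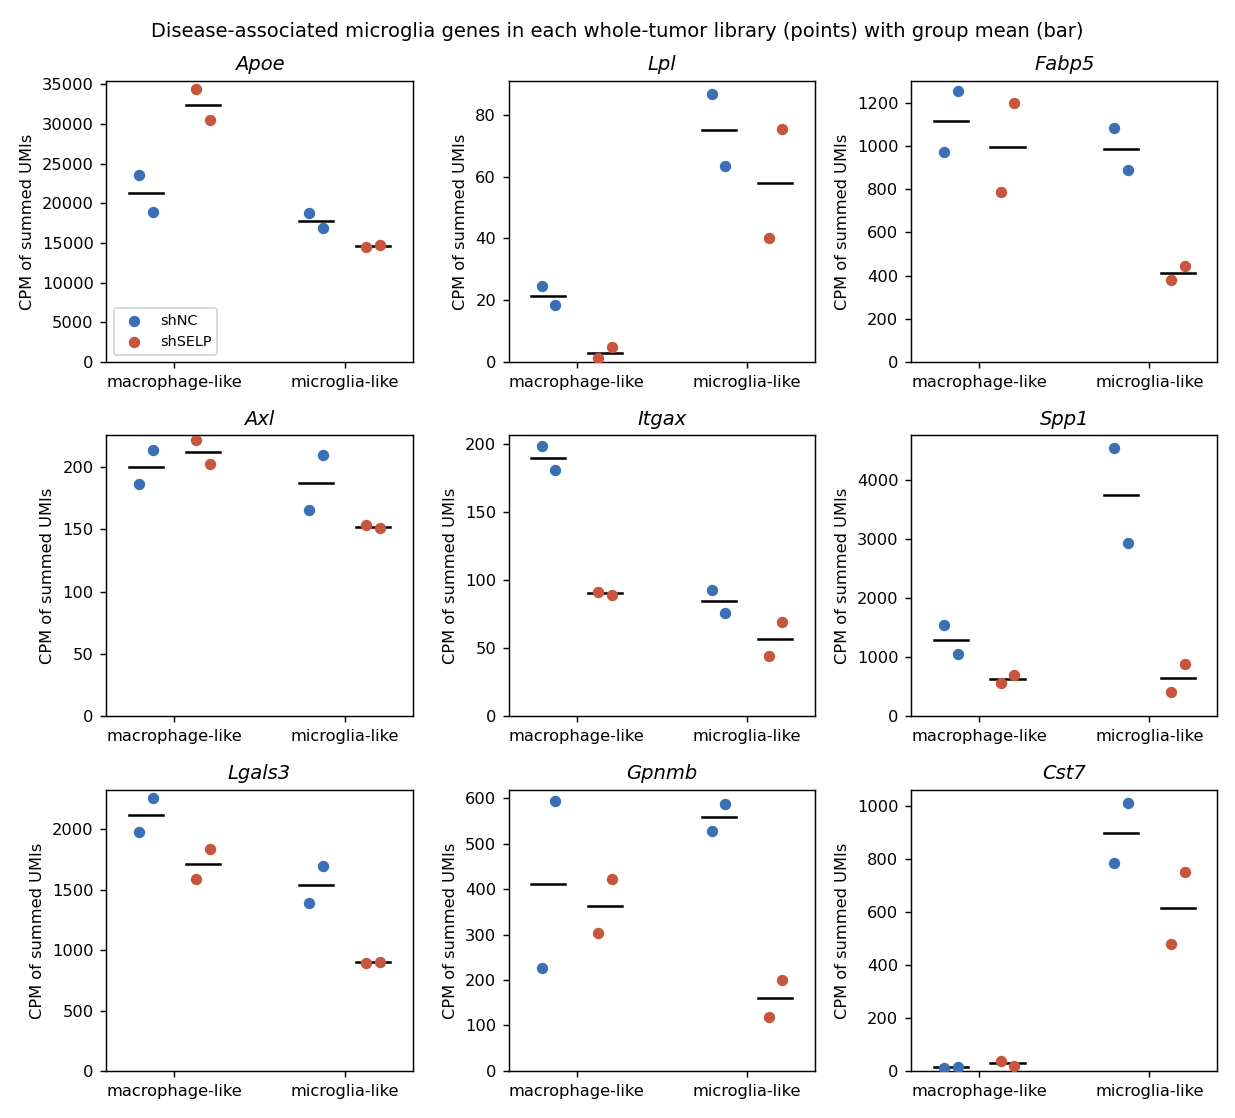
Level of each gene (CPM, linear axis) in each whole-tumor library, with the group mean as a bar, for microglia-like and macrophage-like cells, shNC and shSELP libraries side by side. In microglia-like cells the shSELP points sit under the shNC points without overlap for 8 of the 9 genes.

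In macrophage-like cells Itgax and Lpl fell, and Apoe and Cst7 were higher without passing the test in edgeR. Of the 9 genes, 2 passed in edgeR, both lower, where 1.06% of 10778 genes passed (114 genes) and 0.594% passed as lower (64 genes). The groups did not overlap for 6 of the 9 (4 lower, 2 higher), against 48.1% of all genes tested (32.9% lower, 15.1% higher). The median log2 ratio was -0.09 for the 9 genes and -0.00 for all genes.

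Itgax stood at 199 and 181 CPM with the control shRNA and at 91.7 and 89.0 CPM with shSELP. Replicates lay close together and the groups far apart, with a log2 change of -1.01 ± 0.11 (n = 2 against 2, edgeR adjusted p = 0.0122), and the call held under all 12 alternatives run. Lpl stood at 24.7 and 18.3 CPM in shNC and at 1.34 and 4.71 CPM in shSELP libraries, from 260, 167, 7 and 62 UMIs. The groups did not overlap, but the shSELP libraries rest on few molecules (log2 change -2.51 ± 0.35, edgeR adjusted p = 0.0191). Without shSELP replicate 2, Lpl had a log2 change of -3.94, and with cells named one by one -1.92. Thinned to 2000 UMIs, its call was lost (-2.01, edgeR adjusted p = 0.151, between 2.40e-31 and 0.151 over 12 alternatives).

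Apoe stood at 23589 and 18952 CPM in shNC and at 34408 and 30448 CPM in shSELP macrophage-like cells. Its groups did not overlap, and it missed the threshold in edgeR (log2 difference 0.67 ± 0.13, adjusted p = 0.0569). T-like cells lay the same way, at 581 and 473 CPM in shNC and 1146 and 1096 CPM in shSELP libraries, while NK-like cells held 160 and 133 against 203 and 153 CPM and dendritic-like cells, at 167 and 79.2 against 111 and 234 CPM, overlapped. Spp1 stood at 1538 and 1054 CPM in shNC and 573 and 698 CPM in shSELP macrophage-like cells, without overlap (log2 difference -0.96 ± 0.19, edgeR adjusted p = 0.0582). Cst7, at 12.1 and 15.9 against 38.3 and 19.7 CPM, differed by 1.05 ± 0.28 on the log2 scale (edgeR adjusted p = 0.127), far below its microglial level in every library.

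Gpnmb, Fabp5 and Axl overlapped between the groups in macrophage-like cells. Gpnmb stood at 227 and 594 CPM in shNC and 303 and 423 CPM in shSELP libraries (log2 difference -0.09 ± 0.36). Fabp5 stood at 971 and 1258 against 789 and 1202 CPM, and Axl at 186 and 213 against 221 and 203 CPM. The sign for Gpnmb turned without shNC replicate 2 (0.72) and without shSELP replicate 1 (0.14), and that of Fabp5 turned in the same fits (0.08 and 0.20). Lgals3 lay lower in both shSELP libraries (1979 and 2259 against 1587 and 1840.4 CPM) and did not pass (-0.23 ± 0.11, edgeR adjusted p = 0.356).

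The count of genes called in macrophage-like cells was 58 without shNC replicate 1, 250 without shNC replicate 2 and 204 without shSELP replicate 1. Apoe joined Itgax and Lpl without shNC replicate 1 (adjusted p = 0.0371 in edgeR, between 1.81e-16 and 0.174 over 12 alternatives), and Spp1 joined them without shNC replicate 2 (adjusted p = 0.00401, between 1.32e-16 and 0.170). Without shSELP replicate 2, Apoe, Cst7 and Spp1 all passed beside them, 5 of the 9, among 94 genes. DESeq2 called 4 of the 9 (Apoe, Itgax, Lpl and Cst7) among 188 genes.

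State sizes differed with the groups. The Vcam1 state, 1 of those highest in Itgax, held 289 and 105 cells in shNC and 13 and 18 in shSELP libraries, and the cycling state held 91 and 54 against 14 and 10. The Saa3 state, high in Apoe, held 25 and 21 cells in shNC and 99 and 248 in shSELP libraries. With the Vcam1 state left out, an alternative added after the data were seen, the log2 change of Itgax was -0.82 (edgeR adjusted p = 0.0108, between 4.99e-14 and 0.0336 over 12 alternatives). Apoe (0.67, adjusted p = 0.0246) and Spp1 (-1.07, adjusted p = 0.0239) then passed too, among 164 genes of 10295 tested.

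Fits within the 5 states with at least 20 cells in each library showed Spp1 alone passing. In state 0, led by Pdpn and Nr4a3, Spp1 stood at 985 and 999 CPM in shNC and at 472 and 340.4 CPM in shSELP libraries (-1.27 ± 0.14 on the log2 scale, edgeR adjusted p = 0.00815), where 0.0262% of genes passed. In state 4, led by the monocyte genes Plac8 and Ly6c2, it stood at 852 and 420.0 against 229 and 181 CPM (-1.62 ± 0.24, edgeR adjusted p = 0.00417), where 0.114% passed. The groups did not overlap in either state.

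In the other states edgeR called 0 of the 9: state 2, led by Ccr2 and S100a6 (0.207% of genes passed, 4 members at an unadjusted p under 0.05), the Saa3 state 3 (0% of genes, 4 of 8 members tested) and state 5 (0.0944% of genes, 3 members). Of all genes tested, 7.48%, 6.47% and 5.12% were at an unadjusted p under 0.05 in states 2, 3 and 5. DESeq2 was not run within states. Itgax lay lower in both shSELP libraries in states 2, 3 and 5, at 86.6 and 122 against 57.3 and 71.4 CPM in state 2 and at 123 and 134 against 72.1 and 69.4 CPM in the Saa3 state, and overlapped between the groups in states 0 and 4. Gpnmb in the Saa3 state lay at 617 and 796 against 419 and 288 CPM (-0.93 ± 0.19 on the log2 scale, adjusted p = 0.417), and in state 5 at 2082 and 2217 against 1749 and 1928 CPM (-0.23 ± 0.13, adjusted p = 0.999), without overlap in either.

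Marker lists in macrophage-like cells moved as well. The 7 cycling markers summed to 291 and 239.5 CPM in shNC and 160.3 and 117 CPM in shSELP libraries, led by Mki67, with all 7 found in each library. The 7 neutrophil markers summed to 45.5 and 53.5 CPM in shNC and 108 and 90.5 CPM in shSELP libraries, led by Csf3r or S100a8, with Retnlg and Mmp9 at 0 in both shNC libraries. Tumor markers (12 genes) summed to 37.6 and 33.5 against 19.2 and 27.7 CPM, with H19, Prph or Fabp7 the most abundant. With the cycling clusters left out, Itgax (-0.95, edgeR adjusted p = 0.0217) and Lpl still passed; the part of the neutrophil and tumor markers was not tested.

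Whether microglia-like and macrophage-like cells of the same library responded differently was tested in 1 joint fit with library, class and their interaction with the group. For 7 of the 9 genes the response differed, where 1.59% of 10677 genes passed (170 genes). The log2 change of Spp1 was more negative in microglia-like than in macrophage-like cells, by -1.73 ± 0.19 (edgeR adjusted p = 1.49e-05). Gpnmb differed by -1.94 ± 0.24 (adjusted p = 3.21e-05), Fabp5 by -1.22 ± 0.18 (adjusted p = 0.000287) and Apoe by -1.05 ± 0.13 (adjusted p = 4.04e-05). Lpl differed in the other direction, by 2.23 ± 0.26 (adjusted p = 1.84e-05): it fell in macrophage-like cells and not detectably in microglia-like cells.

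Cst7 differed by -1.67 ± 0.30 between the classes (edgeR adjusted p = 0.00322), with -0.90 without shSELP replicate 1 and -2.52 without shSELP replicate 2. Lgals3 differed by -0.62 ± 0.14 (adjusted p = 0.0219), a call lost without shNC replicate 1 (adjusted p = 0.132) or without shNC replicate 2 (adjusted p = 0.310), between 0.000460 and 0.486 over 8 alternatives. Without shNC replicate 2 the response of Gpnmb differed by -2.57, and without shSELP replicate 2 that of Lpl differed by 2.92. Thinned cells gave -1.34 for Gpnmb and no call for Lpl (1.38) or Lgals3, and naming cells one by one gave -0.71 for Gpnmb and no call for Cst7 (-0.60) or Fabp5 (-0.34). The count of genes was 102 without shNC replicate 2. DESeq2 called 5 of the 9 (Apoe, Gpnmb, Spp1, Lgals3 and Fabp5) and lost Cst7 (-1.71, adjusted p = 0.356, between 1.89e-16 and 0.392 over 8 alternatives); it gave no adjusted p for Lpl. Axl (-0.54 ± 0.16, edgeR adjusted p = 0.0902) and Itgax (0.32 ± 0.20, edgeR adjusted p = 0.587) did not pass, and Itgax turned sign without shSELP replicate 2 (-0.02).

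**Figure D3:**
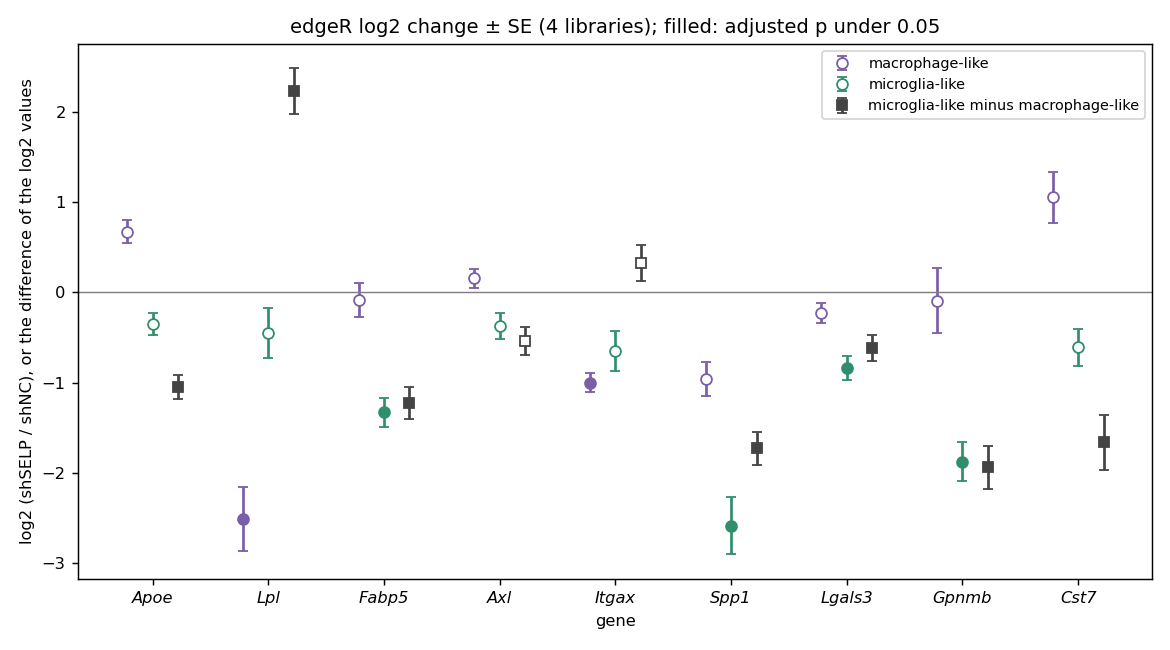
Log2 ratio of shSELP over shNC with its standard error for each gene in macrophage-like and microglia-like cells, and the difference between the 2 classes (squares), filled where the edgeR adjusted p is under 0.05. Filled circles are Gpnmb, Spp1, Lgals3 and Fabp5 in microglia-like cells and Itgax and Lpl in macrophage-like cells.

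In dendritic-like cells no change in the set was detected. Of 8 members tested, edgeR and DESeq2 each called 0, and Gpnmb was the 1 member at an unadjusted p under 0.05 in edgeR. Over 7770 genes, 0.206% passed in edgeR (16 genes) and 6.92% were at an unadjusted p under 0.05, and DESeq2 called 17 genes. The groups did not overlap for 2 of the 8 members, both lower, against 36.7% of all genes tested (18.6% lower). Itgax stood at 127 and 101 CPM in shNC and at 98.8 and 77.7 CPM in shSELP libraries, without overlap (-0.39 ± 0.21 on the log2 scale, edgeR adjusted p = 0.785). Gpnmb stood at 8.09 and 19.3 against 2.91 and 5.68 CPM, close to its T-like level (11.7, 23.8, 10.1 and 13.4 CPM). Its log2 value was -0.84 without shNC replicate 2 and -2.20 without shSELP replicate 2, against -1.59 with all libraries.

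Lpl had too few UMIs for a test in dendritic-like cells. Without shNC replicate 1, Apoe and Gpnmb passed (79 genes in all); the count of genes was 375 without shNC replicate 2 and 27 without shSELP replicate 2. Neutrophil markers in this class gave 5 and 8 UMIs for shNC and 4333 and 7042 for shSELP, of which 4328 and 7016 lay in 1 cell of each library. Plasma-cell markers gave 864 and 1063 UMIs in shNC and 62 and 103 in shSELP libraries, most of it in 2 and 1 cells of the shNC libraries. With those cells left out, an alternative added after the data were seen, edgeR called 0 genes and 0 members, and DESeq2 was not run. At an unadjusted p under 0.05 stood 505 genes and 1 member, against 538 genes with those cells kept. Why the 16 calls were lost was not tested.

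In tumor-like cells, which carry the shRNA, edgeR and DESeq2 each called 0 of 6 members tested, and Apoe was the 1 member at an unadjusted p under 0.05 in edgeR. Over 10157 genes, 0.0394% passed in edgeR (4 genes) and 19.1% were at an unadjusted p under 0.05, and DESeq2 called 119 genes. Apoe stood at 198 and 79.1 CPM in shNC and at 322 and 238 CPM in shSELP libraries, without overlap (0.98 ± 0.39 on the log2 scale, edgeR adjusted p = 0.234), and the value was 1.82 without shNC replicate 1. Those levels lie below the T-like level of Apoe in each library and near those of NK-like and dendritic-like cells. Axl, at 92.7 and 93.9 against 104 and 137 CPM, did not overlap either (0.35 ± 0.18, edgeR adjusted p = 0.323). These are 2 of the 6 members, both higher, while 52.3% of all genes tested did not overlap (26.0% higher).

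Gpnmb, the member with its highest class mean in tumor-like cells, stood at 1046 and 766 CPM in shNC and at 442 and 893 CPM in shSELP libraries. The groups overlapped in CPM (-0.46 ± 0.32 on the log2 scale, edgeR adjusted p = 0.458). The share of tumor-like cells with Gpnmb after thinning to 2000 UMIs, which left out 42, 56, 34 and 79 cells under that depth, did not overlap, at 70.4% and 60.6% in shNC and 36.5% and 28.8% in shSELP libraries; median depths before thinning were 14452, 13588.5, 6447 and 2478 UMIs. Its level went with the cluster: the deep cluster 6 held 1206 ± 687 CPM and the cycling cluster 7 held 335 ± 202 CPM, and these clusters had 232, 166, 44 and 32 cells and 121, 116, 64 and 151 cells. Gpnmb stood at 1188 and 899.7 against 570.3 and 2165 CPM in cluster 6 and at 631 and 288 against 235 and 184 CPM in cluster 7. Of the 2 clusters only cluster 6 overlapped between groups in CPM. The thinned share overlapped in neither, at 75.4% and 66.5% against 47.5% and 57.1% in cluster 6. In cluster 7 it was 56.6% and 46.2% against 23.5% and 18.4%. Itgax, Lpl and Cst7 had too few UMIs for a test. The count of genes was 232 without shNC replicate 2, 8 without either shSELP replicate and 0 without shNC replicate 1 (875 genes at an unadjusted p under 0.05; DESeq2 was not run there).

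The CD11b+ libraries of day 21 allow no test between groups, with 1 library each and no replicate check. The ratio of CPM (shSELP over shNC) is given with its exact binomial 95% interval, which covers counting error only. Such an interval is narrower for genes with more UMIs, and the shares of all genes beside it take every gene with at least 20 UMIs. Members held from 221 (Itgax) to 83716 UMIs (Apoe) in microglia-like cells. In macrophage-like cells they held from 350 (Cst7) to 510826 UMIs (Apoe). The shares were not matched for abundance. In microglia-like cells (457 cells), the interval left out 1 for 7 of the 9 genes, 6 of them higher in the shSELP library, against 15.8% of 7474 genes. The median ratio was 1.31 for the 9 genes and 1.03 for all genes.

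Spp1 in CD11b+ microglia-like cells stood at 3778 CPM in the shNC and 6055 CPM in the shSELP library, a ratio of 1.60 (1.55 to 1.66). Gpnmb stood at 302 and 478 CPM, a ratio of 1.58 (1.396 to 1.79). Fabp5 stood at 891 and 1145 CPM, a ratio of 1.29 (1.19 to 1.39). All 3 were higher in the library titled shSELP (8.74% of genes had an interval above 1), while in the whole-tumor libraries of day 16 they were lower in shSELP without overlap. Cst7 (1.48, from 1.37 to 1.61), Itgax (1.41, from 1.07 to 1.86) and Axl (1.31, from 1.12 to 1.54) were likewise higher here and lower there, where they did not pass. Apoe was lower in both (0.890, from 0.878 to 0.903), and the intervals of Lgals3 (0.998, from 0.939 to 1.06) and Lpl (0.974, from 0.809 to 1.17) held 1. In these cells the 7 neutrophil markers summed to 131 CPM in the shNC and 33.3 CPM in the shSELP library. The 7 cycling markers summed to 221 and 395 CPM, and the part of either list was not tested.

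In CD11b+ macrophage-like cells (4260 cells), the interval left out 1 for all 9 genes, 6 higher and 3 lower, against 39.8% of 10580 genes. The median ratio was 1.14 for the set and 1.07 for all genes. Lpl stood at 37.2 CPM in the shNC and 18.5 CPM in the shSELP library, a ratio of 0.498 (0.413 to 0.598), and Spp1 at 1207 and 872 CPM, a ratio of 0.722 (0.702 to 0.743). Both were lower in the shSELP library, the direction seen in the whole-tumor macrophage-like cells. Itgax went the other way from the whole-tumor libraries, at 142 and 193 CPM, a ratio of 1.37 (1.27 to 1.47). Gpnmb (1.67, from 1.58 to 1.76), Axl (1.56, from 1.47 to 1.66), Cst7 (1.56, from 1.25 to 1.94) and Fabp5 (1.14, from 1.11 to 1.17) were higher, and Lgals3 was lower (0.836, from 0.820 to 0.853). Apoe had a ratio of 1.01 (1.0001 to 1.01), which turned to 0.942 with TMM scaling factors. Neutrophil markers summed to 115 CPM in the shNC and 44.7 CPM in the shSELP macrophage-like cells, and cycling markers to 273 and 280 CPM. The part of these markers was not tested. Day, cell preparation and experiment differ together between the whole-tumor and CD11b+ libraries and cannot be told apart.

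**Figure D4:**
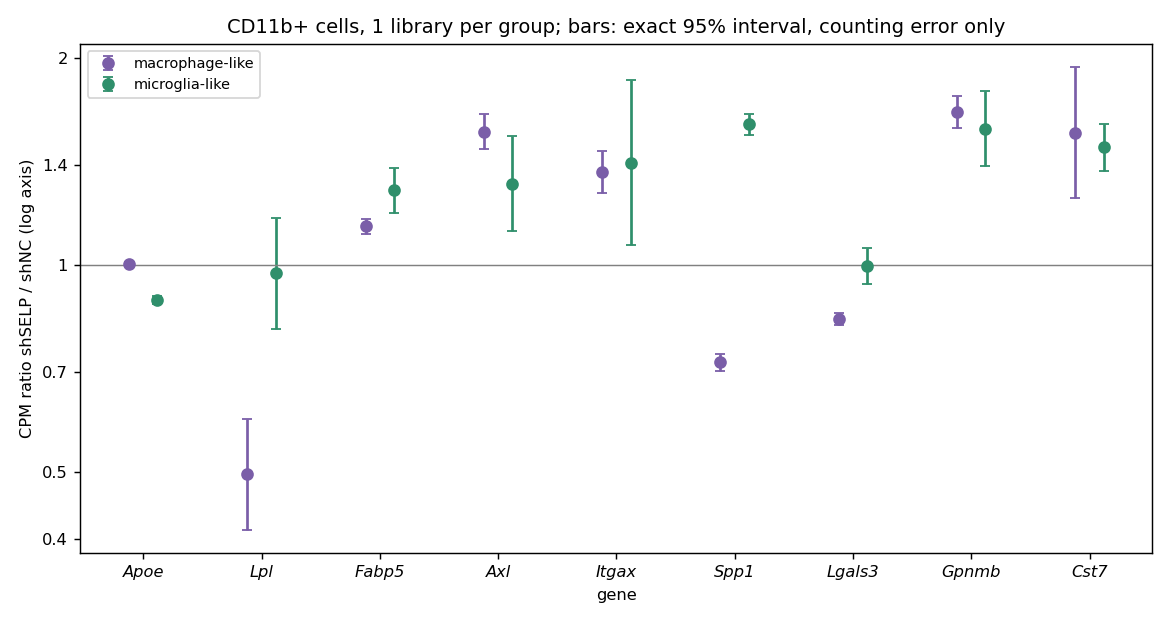
Ratio of CPM, shSELP over shNC, in the CD11b+ libraries with its 95% counting interval (log axis) for microglia-like and macrophage-like cells. Spp1 lies at 1.60 in microglia-like and 0.722 in macrophage-like cells, and Lpl at 0.974 and 0.498.

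Genes that work with the set were read from 8 lists, beside the all-gene medians of 0.00 (microglia-like) and -0.00 (macrophage-like). Of all genes tested, 14.3% (microglia-like) and 15.5% (macrophage-like) were at an unadjusted p under 0.05 in edgeR, the share beside each list's count. Of 10 lysosome and phagosome genes, edgeR called 2 as lower in microglia-like cells (8 at an unadjusted p under 0.05, 5 by DESeq2), where 0.354% of genes passed, and all 10 had lower fitted values (median log2 ratio -0.45). The protease Ctsb stood at 5328 and 5837 CPM in shNC and 3589 and 3730.4 CPM in shSELP libraries (-0.67 ± 0.12, edgeR adjusted p = 0.0451). The tetraspanin Cd63 stood at 1814 and 1945 against 1152 and 1235 CPM (-0.72 ± 0.13, edgeR adjusted p = 0.0451). Neither overlapped between groups. In macrophage-like cells 1 of the 10 rose (median 0.11; 2 called by DESeq2; 0.464% of genes passed as higher), lysozyme Lyz2, at 8025 and 9528 CPM in shNC and 12832 and 15237 CPM in shSELP libraries (0.75 ± 0.12, edgeR adjusted p = 0.0288).

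Of 9 lipid-handling genes, edgeR called 0 in microglia-like cells (5 at an unadjusted p under 0.05, 1 by DESeq2), and all 9 had lower fitted values (median -0.37). The lipid-droplet protein Plin2 stood at 198 and 177 against 111 and 122 CPM (-0.74 ± 0.15, edgeR adjusted p = 0.0635). In macrophage-like cells 1 of the 9 fell (median 0.09; 2 called by DESeq2; 0.594% of genes passed as lower), Ch25h, which makes an oxysterol from cholesterol. It stood at 27.9 and 35.7 CPM in shNC and 10.2 and 14.5 CPM in shSELP libraries, without overlap (-1.23 ± 0.18, edgeR adjusted p = 0.0255). Of 13 other activation genes, the growth factor Igf1 fell in both classes (medians -0.18 and -0.15 for the list; 2 called by DESeq2 in each class). Igf1 stood at 91.5 and 130 CPM against 41.7 and 45.7 CPM in microglia-like cells (-1.43 ± 0.18, edgeR adjusted p = 0.00748) and at 14.2 and 36.8 against 2.88 and 3.72 CPM in macrophage-like cells (-2.79 ± 0.45, edgeR adjusted p = 0.0309). Its groups overlapped in neither class.

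Among 14 homeostatic microglia genes, 11 of which are also markers that named the microglia-like clusters, edgeR called 0 in microglia-like cells (9 at an unadjusted p under 0.05, 1 by DESeq2). Of these, 12 had higher and 2 lower fitted values (median 0.45), such as Siglech, at 182 and 145 CPM in shNC and 394 and 259.9 CPM in shSELP libraries (0.94 ± 0.20, edgeR adjusted p = 0.0700). In macrophage-like cells their median was -0.09 over 12 tested, with 0 called (2 at an unadjusted p under 0.05, 0 by DESeq2). The 5 genes of the Trem2 axis had medians of -0.00 (microglia-like) and 0.06 (macrophage-like). In both classes edgeR and DESeq2 called 0 of them, with 2 and 0 at an unadjusted p under 0.05. Trem2 stood at 1192 and 1272 against 1295 and 1189 CPM in microglia-like cells, and its adaptor Tyrobp at 3977 and 4102 against 3286 and 3216 CPM (-0.38 ± 0.12, edgeR adjusted p = 0.187).

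Ligands and receptors that pair with the set, 9 tested, had medians of -0.04 in microglia-like and 0.12 in macrophage-like cells. Both tools called 0 in each class, with 4 and 2 at an unadjusted p under 0.05 in edgeR, against 14.3% and 15.5% of all genes. The Axl relative Mertk stood at 98.0 and 103 CPM in shNC and 169.8 and 148 CPM in shSELP microglia-like cells (0.60 ± 0.14, edgeR adjusted p = 0.102). Transcription regulators, 11 and 12 tested, had medians of 0.09 in both classes, with 0 called by either tool. At an unadjusted p under 0.05 stood 2 and 5 of them, against 14.3% and 15.5% of all genes. Bhlhe41 stood at 12.4 and 12.8 against 4.60 and 6.84 CPM in macrophage-like cells (-0.99 ± 0.21, edgeR adjusted p = 0.0712). The study itself names Spp1, Il1b and Cxcl9 in describing these samples, so they are not independent evidence. Of those 3, Spp1 passed in microglia-like cells and 0 in macrophage-like cells (all 3 at an unadjusted p under 0.05, 1 by DESeq2; medians -0.39 and -0.44).

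Over 41 sums of a class in a library, in 11 classes, the genes outside the set whose level most resembled the mean of the 9 were Tnfsf13b (Pearson r = 0.922), Ccl12 (0.908), C3ar1 (0.901), Ntpcr (0.901) and P2ry6 (0.900), of 5995 genes compared. The sums share libraries and differ in depth, so r is a description. Among pairs within the set, Apoe and Spp1 were most alike (r = 0.781), and Cst7 and Fabp5 least (r = -0.0909).

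The genes do not lie together: Apoe, Axl and Itgax are on chromosome 7 of GRCm38, at 19696109 to 19699188, 25757273 to 25788705 and 128129547 to 128150657, and the other 6 are on 6 different chromosomes. Spp1 (chromosome 5, 104435118 to 104441050) overlaps Gm42793 on the same strand, so part of its UMIs could come from either gene. Gpnmb lies on chromosome 6 (49036546 to 49070929), Lpl on chromosome 8 (68880491 to 68907448), Fabp5 on chromosome 3 (10012548 to 10016607), Lgals3 on chromosome 14 (47367751 to 47386160) and Cst7 on chromosome 2 (150570415 to 150578944).

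Promoter sequence shows what lies just upstream of members that moved together in microglia-like cells, Spp1 and Gpnmb, and of Itgax, which fell in macrophage-like cells. RefSeq windows of 250 bases before the start (GRCm38.p6) were available for 8 of the 10 genes. Each was searched on both strands for the AP-1 site TGANTCA, the E-box CACGTG and the PU.1 core GAGGAAG, found in 6.75%, 6.02% and 10.6% of 32851 windows. The capitals mark a match: the AP-1 site in Itgax lies 56 to 50 bases upstream and the PU.1 core in Spp1 113 to 107 bases upstream, and Gpnmb holds none of these letters. Over the 8 genes the AP-1 site was found in Itgax alone, the PU.1 core in Spp1 and in Axl (131 to 125 bases upstream), which passed in no class, and the E-box in none. Lgals3, which fell with Spp1 and Gpnmb, had no match. The last 3 bases of the Itgax window belong to an Itgax exon. A match is a description and no test of binding. Windows run on the plus strand at chr7:128129300-128129549 (Itgax), chr5:104434861-104435110 (Spp1) and chr6:49036268-49036517 (Gpnmb).
Itgax: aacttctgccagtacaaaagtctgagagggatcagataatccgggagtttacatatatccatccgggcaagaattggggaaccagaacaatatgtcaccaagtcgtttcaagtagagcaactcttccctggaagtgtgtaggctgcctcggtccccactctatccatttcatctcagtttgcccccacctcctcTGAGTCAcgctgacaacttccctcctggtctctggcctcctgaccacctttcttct
Spp1: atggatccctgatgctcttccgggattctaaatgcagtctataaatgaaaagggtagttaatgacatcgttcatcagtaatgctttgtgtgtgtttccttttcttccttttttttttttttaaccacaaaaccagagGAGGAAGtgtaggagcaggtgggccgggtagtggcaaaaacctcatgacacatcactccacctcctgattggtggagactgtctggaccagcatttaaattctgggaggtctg
Gpnmb: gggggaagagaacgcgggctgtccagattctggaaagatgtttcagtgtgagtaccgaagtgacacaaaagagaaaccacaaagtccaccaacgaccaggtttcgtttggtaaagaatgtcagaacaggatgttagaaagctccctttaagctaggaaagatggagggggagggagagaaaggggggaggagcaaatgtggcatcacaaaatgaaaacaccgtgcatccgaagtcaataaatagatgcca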

How the data were processed

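The authors deposited 1 table of UMI counts for each experiment, made with Cell Ranger 1.3 on mm10 per the submitters' processing notes. All values are whole numbers. The members and gene lists were chosen with earlier results of these data known.

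Kept cells had 500 genes or more and no more than 10% mitochondrial UMIs (8726 whole-tumor, 5535 CD11b+). In the tables as deposited, the highest mitochondrial share was between 4.98% and 5.00% in every library, so the 10% limit left out no cell. The most genes in a cell lay between 4992 and 4994 in every whole-tumor library and at 3720 and 3773 in the CD11b+ libraries. Class sizes and depths are those of the deposited cells. They were clustered with Seurat 5.3.0 (2000 variable genes without the members, 12 or 8 components, resolution 0.8), and clusters were named from markers. No cell was left out as a doublet; leaving out the 5% with the highest Scrublet scores (scanpy 1.11.5) was an alternative.

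UMIs were summed per library and class and tested with edgeR 4.0.16 (filterByExpr, TMM, quasi-likelihood, Benjamini-Hochberg over all genes, 0.05) in R 4.3.3, after a check on simulated counts. DESeq2 1.42.0 was an alternative. CD11b+ ratios carry exact binomial intervals (scipy 1.17.1). Named are all members, the genes of each context list that passed and at most 4 others of each list with the smallest p. Levels are CPM of summed UMIs, for classes with at least 20 cells in a library. Positions are from GENCODE and promoters from RefSeq (GRCm38.p6).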

Additional observations from a re-analysis of the deposited data

Results flagged for a closer look

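The response to the P-Selectin shRNA differed between microglia-like and macrophage-like cells by the interaction test in edgeR for 7 members. On the log2 scale, microglia-like minus macrophage-like, the difference was -1.05 for Apoe, 2.23 for Lpl, -1.67 for Cst7, -1.94 for Gpnmb, -1.73 for Spp1, -0.62 for Lgals3 and -1.22 for Fabp5. Apoe and Cst7 were higher in shSELP macrophage-like cells and lower in shSELP microglia-like cells, but none of these 4 changes passed in the main edgeR fit within its class. Apoe and Cst7 passed under 7 and 3 of 12 alternatives in macrophage-like cells, and under 2 and 3 of 11 in microglia-like cells. DESeq2 called both in macrophage-like cells and did not call the different response of Cst7.

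For 6 members in microglia-like cells, every whole-tumor shSELP library of day 16 was lower than every shNC library, and the CD11b+ shSELP library of day 21 was higher than its control. Of all genes tested, 17.0% were lower without overlap in the whole tumor and 8.74% had a CD11b+ interval above 1. Axl, Itgax and Cst7 did not pass in the whole tumor. The CD11b+ ratios were 1.31 for Axl, 1.41 for Itgax, 1.48 for Cst7, 1.58 for Gpnmb, 1.60 for Spp1 and 1.29 for Fabp5. In macrophage-like cells the same held for Itgax, with a CD11b+ ratio of 1.37. In that class 32.9% of genes were lower without overlap in the whole tumor and 26.2% had a CD11b+ interval above 1. The share of all genes that met both conditions was not counted in either class, so these counts of members have no matching background. These differences between experiments were not tested, since the CD11b+ experiment has 1 library for each group, and 7 of the 8 CD11b+ shSELP entries carry 1 description line that names the negative control, while their titles, source names and other lines name shSELP and were followed.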

How the results depend on the processing

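Spp1 in microglia-like cells passed under all 11 alternatives (log2 from -3.28 to -2.07) and Itgax in macrophage-like cells under all 12 (-1.13 to -0.82). Gpnmb and Fabp5 in microglia-like cells passed under 10 of 11, Lgals3 there under 9 of 11 and Lpl in macrophage-like cells under 11 of 12. The cause of each change below was not tested.

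DESeq2 called 188 genes and 4 members in macrophage-like, 59 genes in microglia-like and 119 in tumor-like cells, and 66 for a different response. Without the filter on low counts, edgeR called 858 genes and 5 members in macrophage-like, 348 genes in microglia-like, 135 in dendritic-like and 804 genes and 1 member in tumor-like cells, and 268 for a different response. Cells thinned to 2000 UMIs gave 19 genes and 1 member in macrophage-like, 8 genes in microglia-like and 10 in tumor-like cells, and 21 for a different response; Fabp5 in tumor-like cells (0.031) and the different response of Itgax (-0.062) turned sign. Leaving out the highest doublet scores gave 178 genes and 4 members in macrophage-like, 130 genes in microglia-like and 10 in tumor-like cells, with Apoe (-0.12) and Cst7 (-0.12) turned in dendritic-like cells. Without cycling clusters, 44 genes passed in macrophage-like cells, and Gpnmb (0.23) and Spp1 (-3.21) turned in tumor-like cells. Naming cells one by one gave 16 genes in macrophage-like, 302 in microglia-like and 0 in dendritic-like cells (edgeR; 460 at an unadjusted p under 0.05; 17 by DESeq2 with cells named by cluster), and 370 for a different response; Cst7 in microglia-like cells (0.0072), Spp1 in tumor-like cells (-0.094) and the different response of Itgax (-0.58) turned. TMM factors turned Apoe in CD11b+ macrophage-like cells (0.942). Over TMM factors, thinning and naming cells one by one, which put 702 cells of macrophage-like clusters beside 438 of the class's own, CD11b+ microglia-like ratios ranged from 1.47 to 1.67 (Spp1), 1.32 to 1.53 (Gpnmb), 1.10 to 1.25 (Fabp5), 1.44 to 1.82 (Cst7), 1.25 to 2.15 (Itgax), 1.27 to 1.45 (Axl), 0.829 to 0.966 (Lgals3) and 0.745 to 1.03 (Lpl). In CD11b+ macrophage-like cells they ranged from 0.677 to 0.829 (Spp1), 0.467 to 0.544 (Lpl), 1.28 to 1.47 (Itgax) and 1.07 to 1.18 (Fabp5).

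Libraries of the same replicate number did not deviate together across genes (r = 0.00630 for macrophage-like, 0.0302 for microglia-like cells). With 2 libraries a group, and since genes are not independent replicates, this r cannot exclude that replicate numbers pair libraries. With a replicate block, 174 genes passed in macrophage-like, 216 in microglia-like, 100 in dendritic-like and 21 in tumor-like cells, and 3, 5, 0 and 0 members. The replicate block turned Gpnmb in macrophage-like (0.025) and Spp1 in tumor-like cells (-0.19).

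Leaving out 1 library assumes that the lone library of its group varies like the others. It gave 58 to 250 genes and 2 to 5 members in macrophage-like, 97 to 843 genes and 3 to 8 members in microglia-like, 22 to 375 genes and 0 to 2 members in dendritic-like and 0 to 232 genes in tumor-like cells, and 102 to 238 for a different response. Log2 values that turned ranged from -0.60 to 0.72 (Gpnmb) and -0.44 to 0.20 (Fabp5) in macrophage-like cells and from -0.95 to 0.0090 (Lpl) in microglia-like cells. In dendritic-like cells they ranged from -0.11 to 1.18 (Apoe), -0.13 to 0.74 (Axl), -0.068 to 0.26 (Cst7), -0.13 to 0.51 (Fabp5), -0.22 to 0.0059 (Lgals3) and -1.44 to 0.18 (Spp1). In tumor-like cells they ranged from -0.57 to 0.43 (Fabp5), -0.64 to 0.59 (Lgals3) and -2.73 to 0.96 (Spp1), and for the different response of Itgax from -0.021 to 0.67.

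Added after seeing the data were fits without the Vcam1 state (4 members in macrophage-like cells), without the shallow cluster (136 genes in microglia-like cells), without cells rich in neutrophil or plasma markers (0 genes in dendritic-like cells), and within states and clusters, which were not repeated under other settings. With 2 libraries a group and few UMIs, Lpl, Cst7 and Itgax could not be tested in tumor-like cells, nor Lpl in dendritic-like cells.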
